A study of Rattus norvegicus with 8 samples.

Results

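The genes described here are 44 markers of male germ cells, chosen by symbol: 10 spermatogonial, 13 meiotic, 12 listed with the piRNA pathway and 9 of spermatids. These genes were chosen with earlier results of these data known. They were followed in cultured rat Sertoli cells, the somatic nurse cells of the seminiferous tubule, and 41 of the 44 had a probe set that carries their symbol alone, among 17582 genes so measured. Ddx4, the germ cell RNA helicase, and Sycp3, an axial element protein of meiotic chromosomes, each had a probe set shared with another symbol. Mov10l1, a piRNA biogenesis helicase, was not matched to one, and none of the 3 is given a value.

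Primary Sertoli cells were prepared from digested rat testes, grown in serum-supplemented medium, and treated for 24 h with 0.1 µM NP, with 0.1 mM MBP, with both at these doses (NP+MBP), or with solvent alone as control. The labels give no full names for NP and MBP, and give neither the strain and age of the rats nor the number of animals. Each of the 4 groups had 1 gene-level array and 1 microRNA array, 8 samples in all. No group was replicated on an array type, so a difference between arrays is a description with no test. Each compound was nevertheless added in 2 pairs of arrays that share none. The MBP pairs are MBP over control and NP+MBP over NP, and the NP pairs are NP over control and NP+MBP over MBP. Levels are log2 signals, differences are log2 differences with the treated array first, and a mean over the 2 pairs is given with its SD. This SD reflects how far the difference for 1 compound changed when the other was present. It is therefore the same number for MBP and NP in each gene, and it is no spread between replicates.

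Male germ cells begin as spermatogonia, pair and recombine their chromosomes in meiosis as spermatocytes, and then, as spermatids, replace histones by transition proteins and protamines. Small RNAs called piRNAs, bound by PIWI proteins and processed on Tudor-domain scaffolds, silence transposons in these cells. In the testis Sertoli cells enclose all of these stages, and primary Sertoli preparations can carry germ cells with them. In a bulk sample, more germ cells and more of these RNAs per cell, in germ cells or in Sertoli cells, cannot be told apart.

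With MBP, 4 of the 41 members were at least 1.2-fold higher in both pairs of arrays and 0 were lower in both. The 4 were Sohlh2, a transcription factor of differentiating spermatogonia; Smc1b, a meiotic cohesin subunit; Tdrd1, a Tudor scaffold of the piRNA pathway; and Tex101, a germ cell surface glycoprotein. Over all named genes, 0.427% were higher and 0.21% lower by the same rule. The members listed with the piRNA pathway lay together: for 10 of 11, both arrays with MBP read above both arrays without it. Of all named genes 21.7% did so, and 8.86% of those below the median signal of the array. Shifting the arrays to a common level of the intronic control sets lowered the count to 5 of 11. Of the spermatid members 0 of 9 read so. With NP, 0 members were at least 1.2-fold higher and 0 lower in both pairs, beside 0.0626% and 0.188% of all named genes.

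Most members gave low signals. Only 6 of the 41 (Uchl1, Id4, Piwil4, Tex101, Prm1 and Prm2) reached the median signal of all non-control probe sets, a mean log2 signal of 7.50, and 35 lay below it. Of the 41, 27 exceeded the median of the array's 1153 intronic control sets, 6.29, and 1, Uchl1, exceeded their 95th percentile, 8.95. Of the 4 genes higher in both MBP pairs, Sohlh2 and Smc1b lay below the intronic median. Differences of single intronic control sets had an SD of 0.36 for MBP over control and 0.33 for NP+MBP over NP, more than the 1.2-fold limit of 0.26. Other sets spread less in these pairs. The SD was 0.14 and 0.11 over the non-control sets, and 0.06 and 0.03 over the array's 45 antigenomic background control sets. The control array read differently at low signal. The 7584 named genes below the filter had median differences of -0.08 (MBP) and -0.09 (NP) in the pairs that use the control array, and of -0.01 (NP+MBP over NP) and -0.02 (NP+MBP over MBP) in those that do not. The intronic controls had the opposite sign against the control array, with medians of 0.08 for MBP over control and 0.14 for NP over control. The antigenomic controls had the sign of the low-signal genes, with medians of -0.06 and -0.11, and no shift to their level was made. The part of this in the results that use the control array was not tested; NP+MBP over NP does not use that array.

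**Figure D1:**
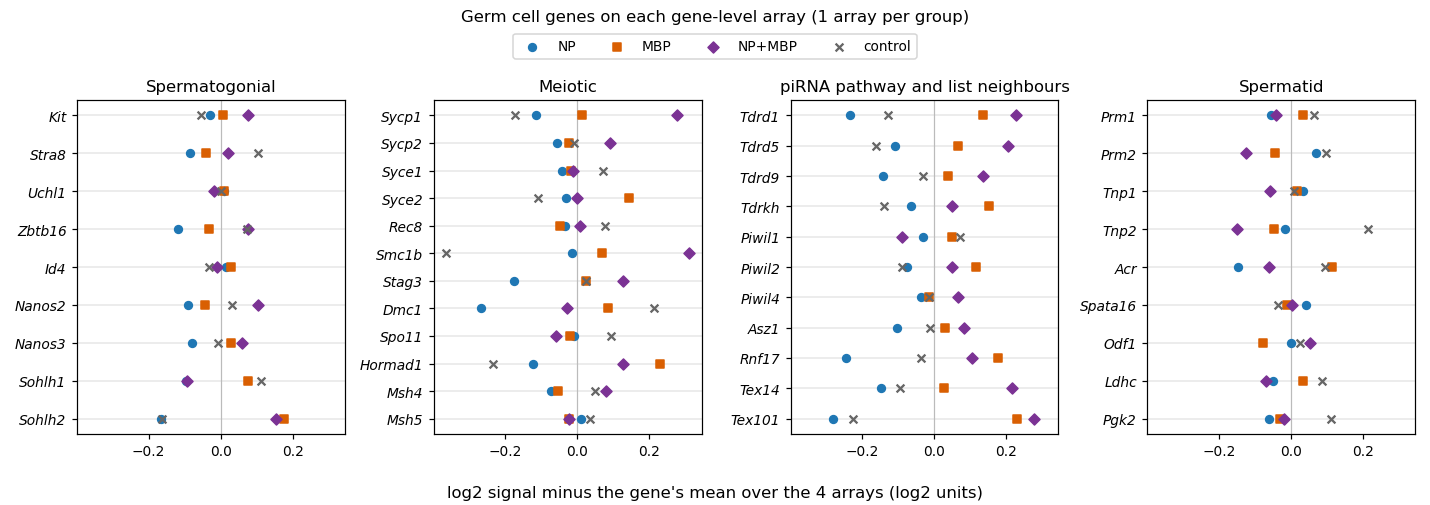
Log2 signal of each of the 41 germ cell genes on each gene-level array, minus the gene's mean over the 4 arrays; each point is 1 array and the panels are the 4 classes. In the piRNA panel the MBP and NP+MBP points lie to the right of the NP and control points in 10 of 11 genes, and in 0 of 9 in the spermatid panel.

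The proximal promoters of the 4 genes higher in both MBP pairs are shown because these genes carry the MBP result; each runs from 250 bases before to 50 bases after the gene's start (RefSeq, GRCr8, written 5′ to 3′ on the gene's strand). Capitals mark a match to CACGTG (an E-box) or GCGGGAA (an E2F site core) on either strand.
Sohlh2 (chr2:141512160-141512459, plus strand): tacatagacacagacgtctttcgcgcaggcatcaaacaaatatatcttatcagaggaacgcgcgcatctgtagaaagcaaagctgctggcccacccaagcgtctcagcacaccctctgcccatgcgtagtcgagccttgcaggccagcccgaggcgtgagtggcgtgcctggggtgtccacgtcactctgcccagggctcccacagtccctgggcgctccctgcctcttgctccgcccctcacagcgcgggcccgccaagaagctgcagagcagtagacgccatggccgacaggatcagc
Smc1b (chr7:118122599-118122898, minus strand): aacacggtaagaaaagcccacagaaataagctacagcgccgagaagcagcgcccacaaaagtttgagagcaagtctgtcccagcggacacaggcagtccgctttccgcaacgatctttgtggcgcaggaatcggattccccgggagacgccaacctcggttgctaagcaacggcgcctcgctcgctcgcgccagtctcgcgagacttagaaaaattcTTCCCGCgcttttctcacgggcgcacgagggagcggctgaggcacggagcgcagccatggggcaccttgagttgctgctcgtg
Tdrd1 (chr1:265880775-265881074, plus strand): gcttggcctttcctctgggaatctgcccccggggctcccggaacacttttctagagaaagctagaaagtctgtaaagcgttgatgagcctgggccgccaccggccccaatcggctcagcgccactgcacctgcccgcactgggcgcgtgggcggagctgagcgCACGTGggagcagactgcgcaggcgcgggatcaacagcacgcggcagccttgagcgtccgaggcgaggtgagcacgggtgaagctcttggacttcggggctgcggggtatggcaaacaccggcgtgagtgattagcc
Tex101 (chr1:89387291-89387590, minus strand): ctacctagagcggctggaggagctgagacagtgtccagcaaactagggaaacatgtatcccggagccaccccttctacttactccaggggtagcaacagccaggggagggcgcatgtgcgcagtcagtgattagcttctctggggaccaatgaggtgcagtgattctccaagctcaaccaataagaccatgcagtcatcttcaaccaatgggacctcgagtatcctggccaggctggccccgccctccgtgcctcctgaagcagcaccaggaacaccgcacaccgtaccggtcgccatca
The Smc1b promoter held GCGGGAA on the opposite strand and the Tdrd1 promoter held CACGTG, while neither motif was in the Sohlh2 and Tex101 windows. Among the 31 members matched to a promoter, CACGTG was present in 5 (Hormad1, Pgk2, Piwil1, Sohlh1 and Tdrd1), beside 6.42% of all 33469 promoters of the same length. GCGGGAA was present in 6 (Hormad1, Smc1b, Spo11, Stag3, Sycp2 and Tex14), beside 4.21%. The cyclic AMP response element TGACGTCA was in 1, Tnp1, beside 1.83%. The classes also differed in CpG dinucleotides, with a median of 19 per promoter over 8 meiotic genes, 16 over 8 genes of the piRNA class, 14 over 8 spermatogonial genes and 7 over 7 spermatid genes, beside 7 over all promoters. These matches and counts are descriptions, and the CpG count was added after the signals had been seen.

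Among the spermatogonial genes, Sohlh2 (RGSC3.4, chr2:144406048-144428506) differed with MBP and not with NP. Its log2 signal was 6.41 with MBP and 6.39 with NP+MBP, against 6.07 with NP and 6.07 in control cells. Both MBP arrays were above both others, and the mean difference over the MBP pairs was 0.33 ± 0.01 (SD, n = 2 pairs), at a signal below the median of the intronic controls. Its partner Sohlh1, which acts in the same early differentiation step, did not follow: it read 7.34 with NP, 7.51 with MBP, 7.34 with NP+MBP and 7.55 in control cells, so that both NP arrays were low.

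The 2 spermatogonial members above the signal filter were level across the arrays. Uchl1, a ubiquitin hydrolase of spermatogonia that neurons also express, read 11.10 with NP, 11.10 with MBP, 11.07 with NP+MBP and 11.09 in control cells. Id4, an inhibitor of differentiation found in spermatogonial stem cells and elsewhere, read 8.04, 8.06 and 8.02 with NP, MBP and NP+MBP, against 7.996 in control cells. Neither gene is limited to germ cells. Stra8, which carries the retinoic acid signal into meiosis, read 7.34 with NP, 7.38 with MBP and 7.44 with NP+MBP, against 7.53 in control cells, its highest value. Kit, the stem cell factor receptor of differentiating spermatogonia, read 7.19 with NP, 7.22 with MBP and 7.29 with NP+MBP, against 7.16 in control cells. Nanos3, an RNA-binding regulator of early germ cells, was also highest on the 2 MBP arrays, at 6.95 with MBP and 6.97 with NP+MBP, against 6.84 with NP and 6.91 in control cells. Nanos2, the stem cell member of that family, had opposite signs in the MBP pairs: 6.91 with MBP against 6.98 in control cells, and 7.05 with NP+MBP against 6.86 with NP. Zbtb16, a stem cell transcription factor, did likewise, with 7.21 for MBP against 7.32 in control cells and 7.32 for NP+MBP against 7.12 for NP. The median difference of the 9 spermatogonial members was 0.01 for MBP over control and 0.11 for NP+MBP over NP. In these pairs 6 of the 9 had opposite signs, as did 6802 of the 17582 named genes.

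The meiotic genes split. Smc1b (RGSC3.4, chr7:123079155-123140105) was lowest in control cells: it read 5.93 with NP, 6.01 with MBP and 6.25 with NP+MBP, against 5.58 in control cells. Its mean difference was 0.38 ± 0.08 over the MBP pairs and 0.30 ± 0.08 over the NP pairs (SD, n = 2 pairs each, equal by construction). Of the 41 members it had the largest positive mean NP difference. Hormad1, which marks unsynapsed chromosome axes, read 6.56 with MBP and 6.46 with NP+MBP, against 6.21 with NP and 6.10 in control cells. All MBP values were above the others, and the difference was 0.46 for MBP over control and 0.25 for NP+MBP over NP, just under the 1.2-fold limit of 0.26. Sycp1, the transverse filament of the synaptonemal complex, read 4.95 with MBP and 5.21 with NP+MBP, against 4.82 with NP and 4.76 in control cells. Its signal was highest with both compounds, and its mean difference over the MBP pairs was 0.29 ± 0.15 (SD, n = 2 pairs).

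Stag3, the meiotic cohesin partner of Smc1b, read 7.37 with MBP and 7.48 with NP+MBP, against 7.17 with NP and 7.37 in control cells. Only the NP+MBP pair showed a difference, 0.30 over NP against 0.00 for MBP over control. Dmc1, the meiotic strand-exchange recombinase, was the member furthest below control with NP, at 5.39 with NP, 5.75 with MBP and 5.63 with NP+MBP, against 5.87 in control cells. Its NP difference was -0.48 over control and -0.11 for NP+MBP over MBP, and both NP arrays were below both others. Syce2, a central element protein, was higher on the MBP arrays by small steps: 7.09 with MBP and 6.94 with NP+MBP, against 6.91 with NP and 6.84 in control cells. The other meiotic members covered narrow ranges. Spo11, which makes the meiotic double-strand breaks, read 4.97 with MBP and 4.93 with NP+MBP, against 4.98 with NP and 5.08 in control cells. Msh5, a crossover factor, was likewise lowest on the 2 MBP arrays, at 6.52 with MBP and 6.52 with NP+MBP, against 6.56 with NP and 6.58 in control cells. Its partner Msh4 read 4.82 with NP, 4.84 with MBP, 4.97 with NP+MBP and 4.94 in control cells. Sycp2, an axial element protein, read 4.98 with NP, 5.01 with MBP, 5.13 with NP+MBP and 5.03 in control cells. The cohesin Rec8 (6.23, 6.22 and 6.27 with NP, MBP and NP+MBP, against 6.34 in control cells) and the central element gene Syce1 (6.14, 6.17 and 6.17, against 6.25) were both highest in control cells. Over the 12 meiotic members the median difference was -0.04 for MBP over control and 0.15 for NP+MBP over NP, and both MBP arrays were above the others in 5 and below them in 2, beside 21.7% and 18.7% of all named genes.

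Of the 4 classes of members, the genes listed with the piRNA pathway had the highest median difference in both MBP pairs; the wider list, given further on, did not have this order. Tdrd1 (RGSC3.4, chr1:263135561-263173096) read 7.26 with MBP and 7.35 with NP+MBP, against 6.89 with NP and 6.996 in control cells. Both MBP arrays were higher, by 0.36 ± 0.14 over the pairs (SD, n = 2 pairs), and the first pair was just past the 1.2-fold limit. Tdrd5, a Tudor protein of the same granules, read 7.45 with MBP and 7.59 with NP+MBP, against 7.28 with NP and 7.23 in control cells. Rnf17, a Tudor and RING finger protein that in mice limits piRNA production, read 5.39 with MBP and 5.32 with NP+MBP, against 4.97 with NP and 5.18 in control cells. In both genes the MBP arrays were the higher ones, with mean differences of 0.27 ± 0.06 for Tdrd5 and 0.28 ± 0.10 for Rnf17 (SD, n = 2 pairs).

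Tdrkh, which takes part in piRNA trimming, read 7.56 with MBP and 7.46 with NP+MBP, against 7.34 with NP and 7.27 in control cells. The helicase Tdrd9 read 5.84 with MBP and 5.94 with NP+MBP, against 5.66 with NP and 5.77 in control cells. Each passed 1.2-fold in 1 pair, Tdrkh over control and Tdrd9 over NP. The PIWI proteins themselves differed less: Piwil2 read 7.12 with MBP and 7.05 with NP+MBP, against 6.92 with NP and 6.91 in control cells. Piwil4, the nuclear PIWI protein, read 7.49 with MBP and 7.57 with NP+MBP, against 7.47 with NP and 7.49 in control cells. It was the only PIWI gene whose mean passed the signal filter, and it did so only through the NP+MBP array. Piwil1, the PIWI protein of later spermatocytes and spermatids, was the exception of the class, reading 7.05 with MBP and 6.91 with NP+MBP, against 6.97 with NP and 7.07 in control cells. Asz1, a mitochondrial piRNA factor, read 6.88 with MBP and 6.94 with NP+MBP, against 6.75 with NP and 6.84 in control cells, again higher on both MBP arrays.

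Tex101 and Tex14 are listed with this class but act elsewhere. Tex101 (RGSC3.4, chr1:79946162-79949087) had the largest mean MBP difference of all 41 members. It read 7.92 with MBP and 7.97 with NP+MBP, against 7.41 with NP and 7.47 in control cells. The MBP arrays were higher by 0.51 ± 0.07 (SD, n = 2 pairs), 1.42-fold, with no difference for NP. Tex14, needed for the intercellular bridges between germ cells, read 7.37 with MBP and 7.56 with NP+MBP, against 7.19 with NP and 7.25 in control cells, a difference of 0.12 in the first pair and 0.36 in the second.

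Without Tex101 and Tex14, both MBP arrays were above the other 2 in 8 of the 9 piRNA genes. This count was added after the values had been seen. The median difference of the 11 members was 0.21 for MBP over control and 0.28 for NP+MBP over NP, against -0.00 and 0.01 over all named genes.

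**Figure D2:**
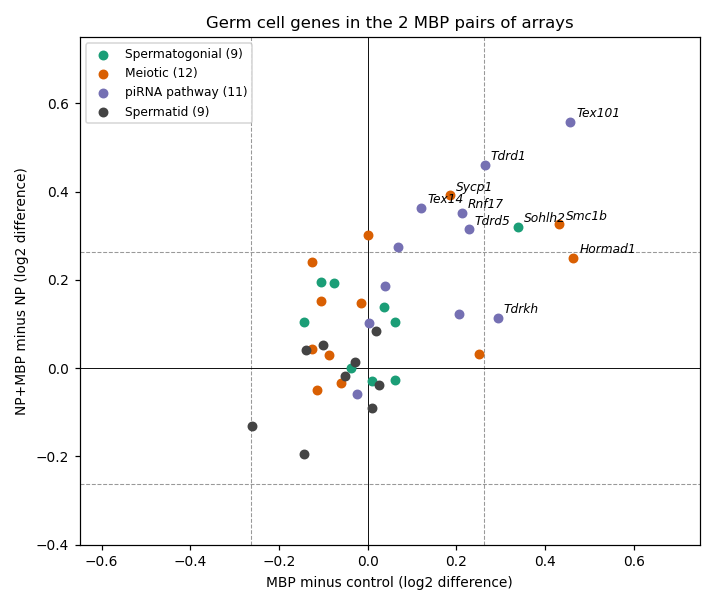
The 41 germ cell genes by their log2 difference for MBP over control (x) and NP+MBP over NP (y), coloured by class; dashed lines mark 1.2-fold. Tex101, Tdrd1, Smc1b and Sohlh2 lie beyond both upper lines, Hormad1 lies just under the y line, and no gene lies beyond both lower lines.

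None of the 9 spermatid members was at least 1.2-fold higher with MBP in either pair. Of all named genes 1.62% were so for MBP over control and 1.34% for NP+MBP over NP. At these shares 0 of 9 does not set the class apart. Prm1 and Prm2, the protamines that pack sperm DNA, were above the signal filter. Prm2 (RGSC3.4, chr10:4813692-4814128) read 7.67 with MBP and 7.59 with NP+MBP, against 7.78 with NP and 7.81 in control cells, and so was lower on both MBP arrays, with a mean difference of -0.17. Prm1 read 8.15 with MBP and 8.07 with NP+MBP, against 8.06 with NP and 8.18 in control cells. Tnp2, a transition protein gene next to the protamines on chromosome 10 (RGSC3.4, chr10:4816612-4817340), read 6.46 with NP, 6.43 with MBP and 6.33 with NP+MBP, against 6.70 in control cells, its highest value. It was the only member at least 1.2-fold lower with NP+MBP than in control cells.

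Tnp1, the other transition protein, read 6.61 with NP, 6.59 with MBP and 6.52 with NP+MBP, against 6.58 in control cells. Acr, the acrosomal protease acrosin, was lower on both NP arrays, at 6.20 with NP and 6.29 with NP+MBP, against 6.46 with MBP and 6.44 in control cells. The germ cell isoenzymes of glycolysis were highest in control cells: Ldhc read 6.19, 6.27 and 6.17 with NP, MBP and NP+MBP, against 6.33, and Pgk2 read 5.28, 5.31 and 5.32, against 5.45. Odf1, a protein of the sperm tail's outer dense fibres, read 6.95, 6.87 and 7.002 with NP, MBP and NP+MBP, against 6.97 in control cells, and the acrosome gene Spata16 read 5.26, 5.21 and 5.22, against 5.18. The median difference of the 9 spermatid members was -0.05 for MBP over control and -0.02 for NP+MBP over NP.

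Counted pair by pair, 6 members were at least 1.2-fold higher and 0 lower for MBP over control, beside 1.62% and 4.2% of all named genes. For NP+MBP over NP, 10 were higher and 0 lower, beside 1.34% and 1.19%. For NP over control, 1 was higher (Smc1b) and 1 lower (Dmc1), beside 1.37% and 4.99%. For NP+MBP over MBP, 1 was higher (Sycp1) and 0 lower, beside 0.865% and 1.05%. For the mixture over control, 8 were higher (Sohlh2, Sycp1, Smc1b, Hormad1, Tdrd1, Tdrd5, Tex14 and Tex101) and 1 lower (Tnp2), beside 2.62% and 6.75%. MBP, NP and NP+MBP over control share the control array, so these counts are not independent of each other. Below the signal filter, where 35 of the members lie, 0.382% of named genes were higher and 0.435% lower in both MBP pairs. In 25 of the 41 members all 4 arrays lay within 0.25 log2, a range that was not counted over all named genes. Opposite signs in the MBP pairs were seen in 16 of the 41 members, beside 6802 of the 17582 named genes, a similar share.

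**Figure D3:**
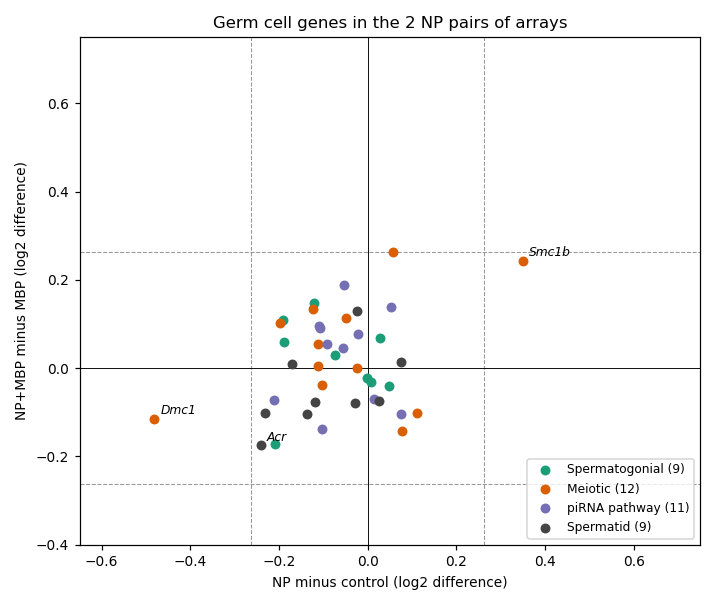
The 41 germ cell genes by their log2 difference for NP over control (x) and NP+MBP over MBP (y), coloured by class; dashed lines mark 1.2-fold. No gene lies beyond both upper or both lower lines; Smc1b and Dmc1 pass the limit over control alone, and Sycp1 passes it only for NP+MBP over MBP.

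An additive model of NP and MBP, fitted with limma to the 13798 probe sets at or above the signal filter with 1 residual degree of freedom, called 0 members and 0 sets (0%) for MBP and 0 members and 0 sets (0%) for NP at an adjusted p under 0.05. At an unadjusted p under 0.05 there were 2110 sets for MBP and 1630 for NP, 2 and 1 of them members. Only the 6 members above the filter were tested. Of these, Tex101 passed the filter only through its MBP arrays, since with NP (7.41) and in control cells (7.47) it lay below it. Piwil4 passed it only through the NP+MBP array (7.57), with 7.47 for NP, 7.49 for MBP and 7.49 in control cells. The place of both genes in the test thus depended on arrays where they were high. Their limma values are therefore no independent support. Among these 6 Tex101 had the smallest adjusted p in limma for MBP, 0.101, beside a smallest of 0.081 over all sets, with an effect of 0.51 ± 0.04 (SE) and higher signals on both of its MBP arrays. With the arrays centred on their medians limma gave an adjusted p of 0.0235 for Tex101, and with a prior variance that follows the signal 0.0183; these settings called 43 and 100 of the 13798 sets for MBP.

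Other germline genes were followed as a wider list of 49 with a probe set of their own, 19 of them above the signal filter. This list was chosen with earlier results of these data known, so its counts are no independent support. In both MBP pairs 8 were at least 1.2-fold higher and 0 lower, beside 0.427% and 0.21% of all named genes. Dazl, an RNA-binding protein of early germ cells, read 7.49 with MBP and 7.63 with NP+MBP, against 6.85 with NP and 6.56 in control cells. Usp26, an X-linked ubiquitin protease of the testis listed with the spermatid genes, read 8.18 with MBP and 8.32 with NP+MBP, against 7.64 with NP and 7.67 in control cells. Slc25a31, the germ cell ADP/ATP carrier and also listed with them, read 8.09 with MBP and 8.18 with NP+MBP, against 7.58 with NP and 7.54 in control cells. In each of these 3 both MBP arrays stood above both others. The remaining 5 were Ret, a GDNF receptor, Tex15, a meiotic and transposon-silencing factor, and Mael, Tdrd12 and Fkbp6 of the piRNA pathway. Their differences lay between 0.28 (Tdrd12, MBP over control) and 0.55 (Tex15, NP+MBP over NP). Ret passed the signal filter only through its MBP arrays, since it read 7.46 with NP and 7.43 in control cells. At the other end were Meig1 (0.02 for MBP over control and -0.41 for NP+MBP over NP), Acrv1 (-0.21 and -0.07) and Gapdhs (-0.12 and -0.16), all genes of spermatocytes or spermatids. The whole list had a median difference of 0.02 for MBP over control and 0.07 for NP+MBP over NP. By class these medians were 0.14 and 0.11 for 9 spermatogonial genes, 0.02 and 0.06 for 15 meiotic genes, 0.04 and 0.10 for 9 piRNA genes and -0.02 and 0.07 for 16 spermatid genes, so the piRNA genes did not lead here.

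Markers of other testis cells were read on the same arrays. The Sertoli markers Fshr, Clu and Gata4 were bright, with Fshr at 11.72 with NP, 11.58 with MBP, 11.46 with NP+MBP and 11.59 in control cells. Fshr was read from the brighter of 2 probe sets, annotated with cross-hybridization type 3, while the other Sertoli markers had type 1. Of the 12 Sertoli markers, 10 were above the filter. Amh, the hormone of immature Sertoli cells, was below it. All 5 peritubular myoid markers and all 6 fibroblast markers were above the filter too. Their 3 brightest members each (Tagln, Actg2 and Cnn1 of the myoid list, Col1a1, Col1a2 and Dcn of the fibroblast list) differed by at most 0.06 in any comparison. Other markers were lower with MBP. The fibroblast matrix gene Dpt read 9.68 with MBP and 9.71 with NP+MBP, against 10.25 with NP and 10.19 in control cells, and Lum was lower by smaller steps (-0.17 for MBP over control and -0.14 for NP+MBP over NP). Cldn11, the tight junction claudin of Sertoli cells, read 9.37 with MBP and 9.46 with NP+MBP, against 10.02 with NP and 10.04 in control cells. The steroid enzyme genes Cyp17a1 (-0.30 for MBP over control and -0.29 for NP+MBP over NP) and Hsd17b3 (-0.31 and -0.41) of the Leydig list were also lower. Both lie below the signal filter. Thus 1 of 12 Sertoli, 1 of 6 fibroblast and 2 of 6 Leydig markers were at least 1.2-fold lower in both MBP pairs. Of all named genes 0.21% were so, and 0.435% of those below the filter. The part of these lower markers in the germ cell results was not tested. Of the Leydig markers 2 of 6 were above the filter (Star and Insl3, with Cyp11a1 next), of the endothelial 1 of 3 (Cdh5, with Tek and Vwf below it) and of the macrophage 0 of 6 (Cd68, Mrc1 and Csf1r were the brightest). The sum of linear signals over the 41 members was 6551 with NP, 6936 with MBP and 6922 with NP+MBP, against 6744 in control cells. Over the 12 Sertoli markers it was 13826, 13416 and 13173, against 13487. The sum over the members is no measure of germ cell content. Its largest single part is Uchl1, which is not limited to germ cells, and 35 of the 41 members lay below the signal filter.

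All 6 proliferation markers (Mki67, Top2a, Ccnb1, Ccna2, Cdk1 and Bub1) were higher with each treatment than in control cells, with a median difference of 0.16 for MBP, 0.18 for NP and 0.24 for NP+MBP. In the second MBP pair, NP+MBP over NP, their median was 0.07. Their part in the germ cell results was not tested.

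**Figure D4:**
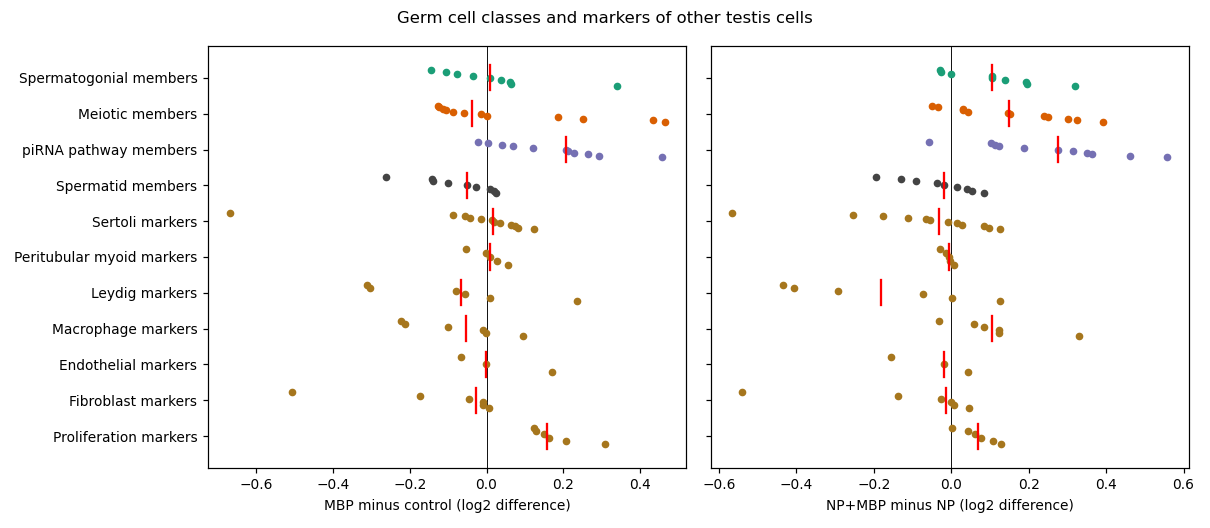
Log2 differences of the germ cell classes and of the markers of other cells, for MBP over control (left) and NP+MBP over NP (right); each point is 1 gene and red bars are medians. The piRNA class has the highest median in both panels, 0.21 and 0.28.

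MicroRNAs listed for germ cells were read on the microRNA array, whose values were normalized apart and taken as log2. Whether their signals came from germ cells or from Sertoli cells was not tested. Of 39 listed rows, 16 were at or above the median of the 680 mature rat rows, 1.35. Of these 16, 10 were at least 1.2-fold higher in both MBP pairs and 0 lower, beside 17.6% and 7.35% of the 340 rows above that median. The 10 rows are not independent of each other. They include both strands of miR-871, and miR-741-3p and miR-878 lie close together on the X chromosome. Mature sequences are shown for the 4 of the 16 whose name matched a RefSeq arm exactly (GRCr8), with the seed, bases 2 to 8, in capitals.
miR-741-3p (chrX:150465166-150465187, minus strand): aAAGAUGCcacgcuauguagau
miR-878 (chrX:150474263-150474284, minus strand): gCAUGACAccauacuggguaga
miR-292-3p (chr1:74879478-74879500, minus strand): aAGUGCCGccagguuuugagugu
miR-184 (chr8:99222991-99223012, minus strand): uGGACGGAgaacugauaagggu
The 4 seeds differ from each other. miR-741-3p and miR-878 lie on the X chromosome, and both were higher with MBP. miR-741-3p read 6.54 with MBP and 6.70 with NP+MBP, against 5.73 with NP and 6.10 in control cells. miR-878 read 5.60 with MBP and 5.78 with NP+MBP, against 4.49 with NP and 5.07 in control cells. For both, each MBP array was above each array without MBP.

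Further microRNAs followed the same order. miR-871 read 4.92 with MBP and 5.38 with NP+MBP, against 4.07 with NP and 4.21 in control cells, and its star strand read 5.72 and 6.15, against 5.12 with NP and 5.34 in control cells. miR-743a read 5.96 with MBP and 6.32 with NP+MBP, against 5.52 with NP and 5.65 in control cells. The dimmer miR-743b read 2.52 with MBP and 3.21 with NP+MBP, against 1.70 with NP and 1.87 in control cells, and miR-465 read 2.43 and 2.77, against 1.40 with NP and 1.76 in control cells. The MBP arrays did not overlap the others in any of these. Of the 16 listed rows, 9 had both MBP arrays above the other 2 and 2 below, beside 30% and 13.2% of the 340 rows. miR-463 and miR-292-3p, a microRNA of pluripotent cells, were highest with MBP alone: miR-463 read 4.74 with MBP and 4.20 with NP+MBP, against 3.88 with NP and 3.73 in control cells, and miR-292-3p read 3.48 and 2.90, against 2.36 with NP and 1.70 in control cells. miR-449a, a microRNA of meiotic and ciliated cells, was low with NP alone, at 0.91, against 2.52 with MBP, 2.19 with NP+MBP and 2.23 in control cells.

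The miR-34 family, abundant in spermatocytes and spermatids and related to miR-449a, was mixed. The dim miR-34b, below the filter, read 1.16 with MBP and 1.04 with NP+MBP, against 0.74 with NP and 0.62 in control cells. miR-34c read 5.62 with MBP and 5.78 with NP+MBP, against 5.78 with NP and 5.90 in control cells. Its star strand read 5.35 with MBP and 5.55 with NP+MBP, against 5.73 with NP and 5.67 in control cells, and that of miR-34b read 4.61 and 4.41, against 4.92 with NP and 4.83 in control cells, so both star strands were lower on the MBP arrays. miR-184 read 1.88 with NP and 1.998 with NP+MBP, against 1.35 with MBP and 1.45 in control cells, higher on both NP arrays. miR-881 read 1.75 with NP, 0.72 with MBP, 1.74 with NP+MBP and 1.28 in control cells. The star strand of miR-883 read 2.92 with NP, 2.09 with MBP, 2.16 with NP+MBP and 1.90 in control cells.

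**Figure D5:**
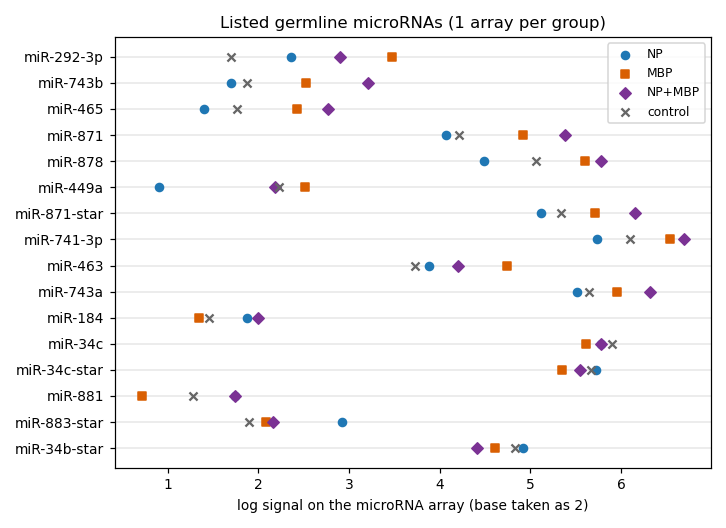
Log signal (base taken as 2) of the 16 listed germ cell microRNAs at or above the microRNA filter, each point 1 array. The MBP and NP+MBP points lie to the right of the NP and control points for 9 rows. These are miR-292-3p, miR-463, miR-465, miR-741-3p, miR-743a, miR-743b, miR-871, its star strand and miR-878. They lie to the left for the star strands of miR-34b and miR-34c.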

How the data were processed

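Gene-level values were log2 signals deposited by the authors as gene-level RMA values, per the file headers. MAS5, without a version, is the only tool in the submitters' processing notes; the 2 sources conflict, and the headers were followed. The microRNA values were deposited on a log scale by the authors, taken as log2 from their range (-0.94 to 13.94); how they were summarised is not given in the sources used here. A deposited workbook held the same gene-level values and the gene symbols, its 4 value columns being named by initials; 0 cells differed. Workbook coordinates overlapped the RGSC3.4 positions in the annotation for 95.0% of 24982 sets.

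Groups came from the sample titles. Each gene was read from the probe set with its symbol alone and the highest mean; each member had 1 such set. The call by size was 1.2-fold (0.26 log2), and the signal filter was the median of the 27596 non-control sets. The number of arrays, 1 per group, limits the precision. limma 3.58.1 in R 4.3.3 fitted NP and MBP terms, with Benjamini-Hochberg adjustment over all sets tested; a true interaction counts as error. This test was run on simulated arrays in 2 versions. With spreads set to each set's posterior variance, false calls were frequent when some sets changed strongly; a second version, adopted after that, drew spreads from the fitted prior and gave few. The model was not altered, so single limma calls are read with that limit.

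The members, gene lists and named genes were chosen with earlier results of these data known. The rule for named genes was the signal filter or a mean of 1.2-fold over either compound's pairs, with the 3 highest and 3 lowest of the wider list and the 3 brightest markers of each other cell type; further members are given to account for all. Chosen after their values had been seen were the counts of genes and microRNAs with both MBP arrays above or below the others, the CpG counts, the 4 promoters, the scaling to intronic controls and the counts without an array. Alternatives covered 3 scalings between arrays, the fold limit, the signal filter, the row per gene, the workbook values and, for limma, 7 settings per compound. Promoters and microRNA sequences are those of RefSeq, GRCr8.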

Additional observations from a re-analysis of the deposited data

Results flagged for a closer look

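Mnd1, a meiotic recombination gene of the wider list, differed in opposite directions in the pairs of each compound. It read 5.00 with NP, 5.03 with MBP and 4.73 with NP+MBP, against 4.64 in control cells, so its difference was 0.38 for MBP over control and -0.27 for NP+MBP over NP, and 0.35 for NP over control and -0.29 for NP+MBP over MBP. Each single compound was above control while the mixture was near it. The difference between the pairs was not tested, all 4 values lie below the signal filter, and genes were searched for this only where both pairs passed 1.2-fold, a limit set after the values had been seen.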

How the results depend on the processing

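Of 28 member differences past 1.2-fold, all 140 recomputed values kept their sign under the 3 scalings, the mean over rows and the intronic shift. Of the 28, 11 fell below 1.2-fold in some of these settings. The values from the mean over rows could not differ, because each member had 1 probe set of its own. For MBP over control the 6 members became 10 with quantile normalization, 10 with cyclic loess, 0 at a 1.5-fold limit, 1 above the signal filter and 10 without the control array, where NP+MBP over NP takes its place. For NP over control the 2 members became 10, all lower, relative to the intronic controls, 0 at 1.5-fold, 0 above the filter and 1 without the control array. For NP+MBP over control the 9 became 1 at 1.5-fold and 1 above the filter. The 4 members higher in both MBP pairs became 7 with cyclic loess, 0 at 1.5-fold and 1 (Tex101) above the filter. Tex101 passed that filter only through its MBP arrays. Relative to the intronic controls the split was 3 higher and 1 lower for MBP over control, and 3 higher and 8 lower for NP+MBP over control; that scaling moved the median of all named genes to -0.14 for NP over control and -0.13 for NP+MBP over control. limma called 1 member for MBP, Tex101, with median centring (43 of 13798 sets called) and 1 with a prior that follows the signal (100 sets), and 0 in its other settings. Both MBP arrays were above the others in 18 of the 41 members and below them in 4, beside 21.7% and 18.7% of all named genes. Among named genes below the filter, 8.86% had both above. The 18 members became 9 relative to the intronic controls, and 20 to 29 with an array left out, 29 without the control array. For the piRNA class the 10 became 5 relative to the intronic controls and was 10 to 10 with an array left out. Leaving out an array only relaxes this rule, so neither count could become smaller and no stability follows. The piRNA class median for MBP over control lay between 0.13 and 0.27. The class medians that changed sign were as follows. Those of the meiotic genes did so for MBP over control (-0.12 to 0.03) and NP+MBP over control (-0.06 to 0.13). Those of the spermatogonial genes did so for the same comparisons (-0.07 to 0.03 and -0.10 to 0.07). That of the spermatid genes did so for NP+MBP over NP (-0.02 to 0.01). The mean over rows and the workbook values could change nothing, because each member had 1 probe set and the workbook held the same values. Causes were not tested. Low signal over background limits 35 of the 41 members. No paired analysis was possible because each group had 1 array per array type, so that no replicates could be matched across groups; the pairs of arrays above are contrasts between groups.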
